A study of Mus musculus with 4 samples.

Results

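Extracellular matrix genes were examined in mouse embryoid body cells sorted for Flk1, with and without Snai1. They comprised the collagen chains, the laminin chains, and the genes Fn1, Nid1, Nid2, Hspg2, Sparc, Vcan and Hapln1. Members were chosen by symbol among the genes named on the array, with 1 probe set per gene, the one with the highest mean over the 4 arrays. This gave 56 genes of 17097, among them 11 fibrillar collagens, 18 genes of the basement membrane, 23 other collagens and the 4 genes Fn1, Sparc, Vcan and Hapln1. Nid2, Lama4 and Lama5 were not analysed here.

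Control embryonic stem cells, genotype F/F, and Snai1 knockout stem cells were each differentiated as embryoid bodies, first in hanging drops and then in suspension. The embryoid bodies were taken apart on day 4, and an antibody against Flk1, the receptor that marks early mesoderm with blood and vessel potential, separated Flk1+ from Flk1- cells. The 4 groups were the Flk1+ and Flk1- fractions of each genotype, with 1 Affymetrix array per group, so no difference has a replicate check and no p-value is given. For the knockout Flk1- sample the labels give day 4 in one field and day 5 in another, and this applies to every comparison that uses it. The labels do not say how Snai1 was deleted or whether a line was 1 clone.

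The matrix is built in layers with different chemistry. Fibrillar collagens such as collagen I, III and V assemble into cross-linked fibres of mesenchymal tissue, whereas laminins and collagen IV form sheet-like networks, joined by nidogen and perlecan, that make up the basement membrane under epithelia and around vessels. Fibronectin, versican and the hyaluronan link protein form the loose matrix through which mesoderm cells move after gastrulation. Snai1 encodes a zinc finger repressor of epithelial genes that acts in the change from epithelium to mesenchyme.

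Values are log2 expression values as deposited. A gene counted as having signal above a floor of 3.19, the 40th percentile of all gene values, and a difference was counted at 1 or more on the log2 scale, which is 2-fold, provided that 1 or both of the arrays compared exceeded the floor. Kdr, which encodes Flk1, was at 8.92 and 9.03 in control and knockout Flk1+ cells and at 4.55 and 3.88 in the Flk1- cells, in the order of the sort labels. Snai1 was below the floor on all 4 arrays (1.88 to 2.56), so its values do not check the genotype. Where 4 values follow each other, the first pair is Flk1+ and Flk1- of the control and the second pair Flk1+ and Flk1- of the knockout. On the Gapdh control spots, the excess of 3' over 5' log2 signal, a sign of RNA integrity, was 2.05, 1.76, 1.47 and 1.99.

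Of the 56 matrix genes, 34 were above the floor on at least 1 array and 24 on all 4, and 22 were below it throughout. The 22 included the fibrillar collagens Col1a2, Col5a2, Col5a3, Col11a1, Col11a2 and Col24a1 and the basement membrane genes Col4a4, Lama2, Lamb3 and Lamc3. The other 12 were Col6a1, Col6a3, Col6a5, Col8a2, Col9a2, Col10a1, Col12a1, Col14a1, Col17a1, Col19a1, Col20a1 and Col22a1. For these genes no difference is described, and a value below the floor does not show that the gene was silent. The 10 genes above the floor on some arrays only passed because of the arrays on which they were high, so counts are given for the 24 genes above it on all 4 arrays as well.

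**Figure D1:**
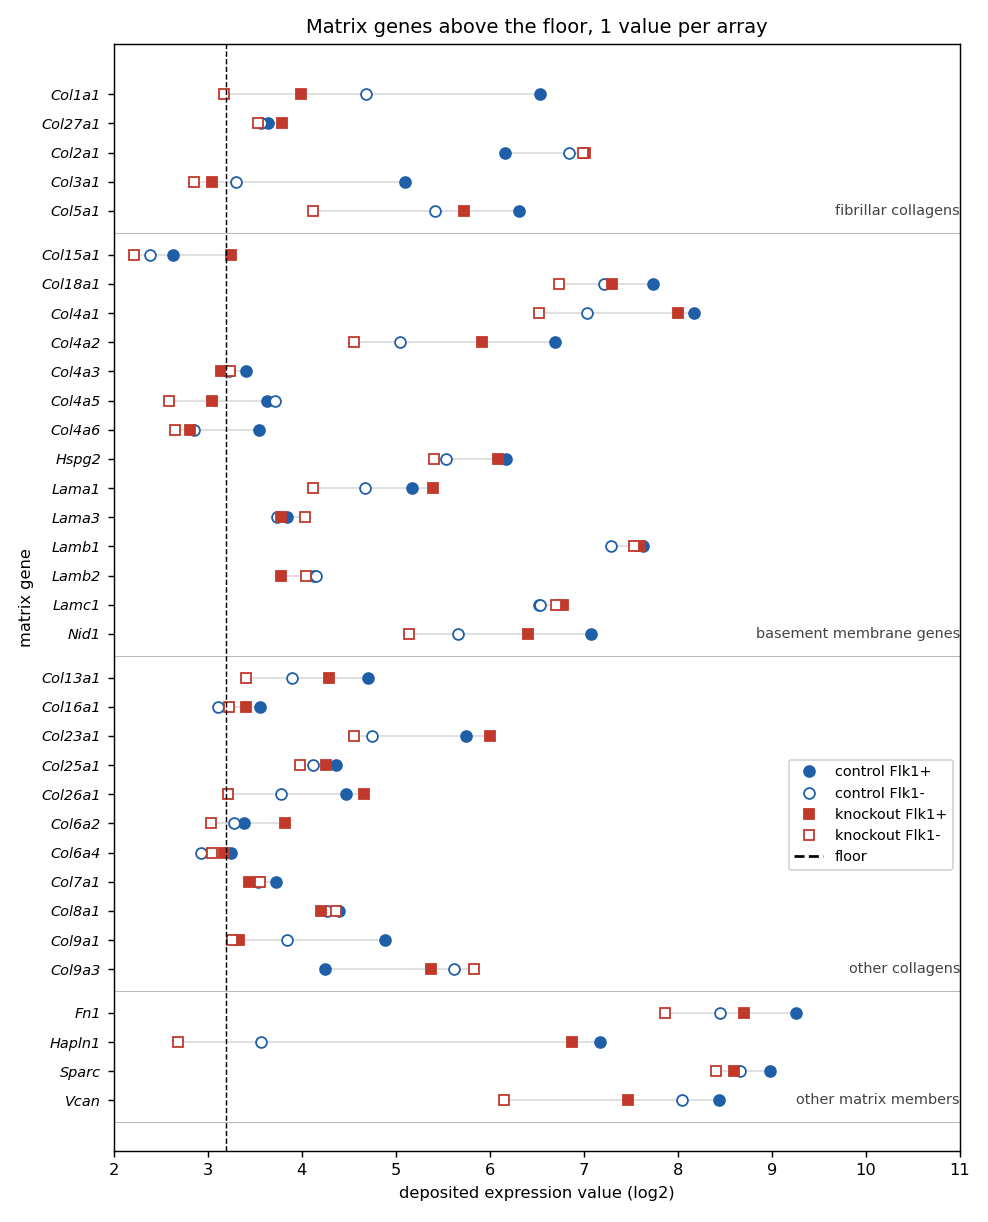
Deposited log2 values (horizontal axis) of the 34 matrix genes above the floor on at least 1 of the 4 arrays, by class, with 1 point per array; circles are control, squares knockout, filled Flk1+ and open Flk1-, and the dashed line is the floor of 3.19. Control Flk1+ is the highest point for 22 of the 34 genes, against 25.9% of all genes on the same filter. Knockout Flk1- is the lowest for 23, against 24.7%.

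The highest value of most matrix genes was on the control Flk1+ array and the lowest on the knockout Flk1- array. Of the 24 genes above the floor on all 4 arrays, control Flk1+ was highest for 15 (62.5%), against 25.4% of the 9555 genes on the same filter, and knockout Flk1- was lowest for 16 (66.7%), against 23.9%. Both held for 12 of the 24, against 11.3%. Adding the genes above the floor on some arrays only uses a filter that itself favours certain arrays. With them, both held for 16 of 34, against 11.6% of the 10955 genes on that filter. These 16 included Col1a1, Col3a1, Col5a1, Col4a1, Col4a2, Col18a1, Nid1, Hspg2 and all of Fn1, Sparc, Vcan and Hapln1. In sorted populations, fewer cells of a type and less RNA per cell cannot be told apart.

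By genotype, 4 of the 34 matrix genes compared were 2-fold apart in Flk1+ cells, against 1.85% of all genes. In Flk1- cells 4 of 31 were, against 1.34%. In Flk1+ cells 3 matrix genes were lower in the knockout (Col1a1, Col3a1 and Col9a1), against 0.976% of all genes, and 1 was higher (Col9a3), against 0.873%. In Flk1- cells 4 were lower (Col1a1, Col5a1, Col4a5 and Vcan), against 0.949%, and 0 were higher, against 0.389%. Centring each array on its median turned the all-gene counts in Flk1+ cells from 93 higher and 104 lower to 120 and 84, and those by sort in knockout cells from 173 and 232 to 223 and 147. Of the 24 genes above the floor on all 4 arrays, 1 was lower and 1 higher in Flk1+ cells, and 2 were lower and 0 higher in Flk1- cells. Of the 9555 genes on the same filter, 76 were lower and 73 higher in Flk1+ cells (1.56% in all) and 79 lower and 19 higher in Flk1- cells (1.03%). The medians of the 24 were -0.18 in Flk1+ and -0.23 in Flk1- cells, and those of the 9555 were -0.05 and 0.04.

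By sort, 9 of the 33 matrix genes compared were 2-fold apart in control cells (27.3%, against 2.70% of all genes). In knockout cells 10 of 30 were (33.3%, against 3.79%). In control cells 8 were 2-fold or more higher in Flk1+ cells, against 1.20% of all genes, and 1 was lower (Col9a3), against 1.51%. The 8 were Hapln1, Col1a1, Col3a1, Col4a2, Nid1, Col4a1, Col9a1 and Col23a1. In knockout cells 10 were higher, against 1.62%, and 0 were lower, against 2.17%. These were Hapln1, Col5a1, Col4a1, Col26a1, Col23a1, Col4a2, Vcan, Lama1, Nid1 and Col15a1. Hapln1, Col4a1, Col4a2, Nid1 and Col23a1 were counted in each genotype, and the share of all genes counted in each was not taken. Of the 24 genes above the floor on all 4 arrays, 5 were higher and 1 lower in the control, and 8 were higher and 0 lower in the knockout. Of the 9555 genes, 75 were higher and 107 lower in the control (1.90% in all) and 121 and 163 in the knockout (2.97%). The medians of the 24 were 0.45 and 0.42, against -0.02 and -0.08.

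Fibrillar collagens differed among themselves, with Col1a1, Col3a1 and Col5a1 2-fold or more lower without Snai1 in 1 or both fractions and Col2a1 not lower. Col1a1, which encodes a chain of collagen I, the main fibre of connective tissue, was at 6.53 and 4.68 in Flk1+ and Flk1- cells of the control and at 3.99 and 3.17 in those of the knockout. Each knockout value lay below the control value of the same fraction, and the knockout Flk1- value was just under the floor. In Flk1+ cells Col1a1 was 5.84-fold lower in the knockout, a log2 difference of -2.55, and in Flk1- cells it was at least 2.81-fold lower. Its single probe set gives no second reading. The partner chain gene Col1a2 was below the floor on all 4 arrays, at 2.14, 2.08, 2.05 and 1.93. So were Col5a2, the partner of Col5a1, at 2.45, 1.96, 2.41 and 2.03, and Col11a1, a collagen of cartilage fibrils, at 2.66, 2.80, 2.94 and 2.64.

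Col3a1, whose product forms thin fibres in vessel walls and embryonic mesenchyme, was at 5.10 and 3.30 in Flk1+ and Flk1- cells of the control and at 3.04 and 2.85 in those of the knockout. It was thus well above the floor on the control Flk1+ array, near it in control Flk1- cells and below it in both knockout fractions. In Flk1+ cells it was at least 3.74-fold lower in the knockout. A second probe set of Col3a1 was below the floor on all 4 arrays. The 250 bases before its start are shown because Col3a1 is, with Col1a1, the fibrillar collagen furthest apart by genotype and Col1a1 has no entry in the promoter table. They are from RefSeq, GRCm38.p6, chr1:45311288-45311537, plus strand, and hold neither of the 2 motifs searched, a CCAAT box (CCAAT, either strand) and the E-box bound by Snail proteins (CACCTG, either strand).
Col3a1: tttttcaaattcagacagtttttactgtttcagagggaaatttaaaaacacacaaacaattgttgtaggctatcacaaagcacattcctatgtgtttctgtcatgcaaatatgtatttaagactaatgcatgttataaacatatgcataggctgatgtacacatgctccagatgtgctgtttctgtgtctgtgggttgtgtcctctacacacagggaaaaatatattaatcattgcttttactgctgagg

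Col5a1, which encodes a collagen V chain that starts and thins collagen I fibres, was at 6.31 and 5.42 in Flk1+ and Flk1- cells of the control and at 5.72 and 4.12 in those of the knockout. The genotype gap was wider in Flk1- cells, at -1.30 on the log2 scale (2.47-fold lower), than in Flk1+ cells, at -0.59. The 3 probe sets of Col5a1 were above the floor on all 4 arrays and ranged from -1.35 to -0.69 for knockout minus control in Flk1- cells and from -0.72 to -0.20 in Flk1+ cells. Whether the gap differs between the fractions was not tested.

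Col2a1, the cartilage collagen that is also made by the notochord and early neural epithelium, was at 6.16 and 6.84 in Flk1+ and Flk1- cells of the control and at 7.01 and 6.99 in those of the knockout. Its lowest value was the control Flk1+ array, where Col1a1, Col3a1 and Col5a1 each had their highest. It was 0.85 higher in knockout than in control Flk1+ cells, and its control sort difference was -0.68, both under 2-fold. Col27a1, a fibrillar collagen of cartilage and other tissues, stayed between 3.53 and 3.79.

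Among basement membrane genes, the collagen IV pair, Nid1 and, in the knockout, Lama1 were 2-fold or more higher in Flk1+ than in Flk1- cells. By genotype 0 of the 10 above the floor on all arrays were 2-fold apart, a count near the shares of all such genes (1.56% and 1.03%). Col4a1 and Col4a2 encode the chains of the most widespread collagen IV network. Col4a1 was at 8.17 and 7.03 in Flk1+ and Flk1- cells of the control and at 8.0 and 6.52 in those of the knockout. Col4a2 was at 6.69, 5.04, 5.92 and 4.55 on the same arrays. Both Flk1+ values of each gene lay above both Flk1- values. In control cells Col4a1 was 2.20-fold and Col4a2 3.13-fold higher in the Flk1+ fraction, and in knockout cells the folds were 2.80 and 2.58. A second probe set of Col4a1 gave log2 differences of 1.43 and 1.60 by sort in control and knockout cells, against 1.14 and 1.49.

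Col4a1 and Col4a2 start next to each other on opposite strands of chromosome 8. Their RefSeq promoter windows, each running from 250 bases before to 50 after a start, share 78 bases. Because the gene models overlap there, only 30 bases around the CCAAT box in each window are shown, with CCAAT or its complement ATTGG in capitals. They are from GRCm38.p6, chr8:11312954-11312983, minus strand, and chr8:11312761-11312790, plus strand. The box begins at position -145 from the Col4a1 start and -32 from the Col4a2 start.
Col4a1: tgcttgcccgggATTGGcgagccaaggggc
Col4a2: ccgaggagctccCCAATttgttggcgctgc

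Nid1 encodes nidogen, which bridges the laminin and collagen IV networks. It was at 7.08 and 5.66 in Flk1+ and Flk1- cells of the control and at 6.40 and 5.14 in those of the knockout. The Flk1+ values again lay above both Flk1- values, by 2.68-fold in control and 2.40-fold in knockout cells. Knockout minus control was -0.68 and -0.53 in Flk1+ and Flk1- cells, under 2-fold, and -0.80 and -0.78 with the second probe set. The 250 bases before the start of Nid1 (GRCm38.p6, chr13:13437352-13437601, plus strand) are shown beside the collagen IV pair because these 3 genes were counted as higher by sort in each genotype. A CCAAT box on the opposite strand, in capitals as ATTGG, begins at position -91 from the start.
Nid1: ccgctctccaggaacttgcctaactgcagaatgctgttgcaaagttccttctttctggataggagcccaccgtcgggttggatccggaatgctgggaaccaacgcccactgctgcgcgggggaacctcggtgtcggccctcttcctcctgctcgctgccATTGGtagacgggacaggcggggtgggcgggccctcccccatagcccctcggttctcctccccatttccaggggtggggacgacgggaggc

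The promoter table held 46 windows of 42 matrix genes. A CCAAT box was in 16 of the 46 windows (34.8%), against 37.4% of all 32851 windows of the same length, and in 6 of the 15 windows of basement membrane genes. The Snail E-box was in 7 of the 46 windows (15.2%), against 20.2% of all windows. These 7 belonged to Col4a4, Lamb3, Col9a2 and Col6a5, which were below the floor on all arrays, and to Col16a1, Col8a1 and Sparc, which differed by less than 2-fold in every comparison. Col16a1 held both motifs, the E-box beginning at -181 and the CCAAT box at -113, so that they did not overlap. A match describes these letters in this window and is not a site.

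Perlecan and collagen XVIII, proteoglycans of the basement membrane, were higher in Flk1+ cells by less than 2-fold. Hspg2, the perlecan gene, was at 6.17 and 5.53 in Flk1+ and Flk1- cells of the control and at 6.09 and 5.41 in those of the knockout. Its sort differences were 0.63 and 0.68, while its genotype differences were -0.07 and -0.12. A second probe set gave 0.41 and 0.05 by sort and -0.38 and -0.02 by genotype. Col18a1, whose collagen carries the endostatin fragment, was at 7.73, 7.21, 7.30 and 6.73 on the 4 arrays. It was 0.44 and 0.48 below control in the knockout Flk1+ and Flk1- fractions, with values of -0.49 and -0.34 for a second probe set.

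Laminins are trimers of an alpha, a beta and a gamma chain, and the chain genes did not share a pattern. Lama1, the alpha chain of the first embryonic basement membranes, was at 5.17 and 4.67 in Flk1+ and Flk1- cells of the control and at 5.40 and 4.12 in those of the knockout. It was 2.43-fold higher in Flk1+ cells of the knockout and 1.42-fold higher in those of the control. The genotype difference was 0.23 in Flk1+ cells and -0.54 in Flk1- cells, and this opposition was not tested.

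Lamb1 and Lamc1, the beta and gamma chains that pair with Lama1, varied little. Lamb1 was at 7.63, 7.29, 7.6 and 7.53, with its lowest value in control Flk1- cells. Lamc1 was at 6.52, 6.53, 6.78 and 6.70, with both knockout values above both control values by 0.26 in Flk1+ and 0.17 in Flk1- cells. The second probe set of Lamc1 gave -0.04 and 0.24. Lamb2, the beta chain of muscle and kidney laminins, was at 4.13, 4.15, 3.78 and 4.04. Lama3, the alpha chain of the laminin under stratified epithelia, was at 3.84, 3.74, 3.78 and 4.03, with its highest value in knockout Flk1- cells.

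The remaining basement membrane genes lay near the floor. Col4a5 was at 3.63 and 3.71 in Flk1+ and Flk1- cells of the control and at 3.04 and 2.59 in those of the knockout, so that only the control values were above the floor. Its difference of -1.13 in Flk1- cells was counted as 2-fold, but against the floor it was at least 1.44-fold. Col4a6 was above the floor in control Flk1+ cells alone, at 3.54, 2.85, 2.81 and 2.65. Col15a1 was above it in knockout Flk1+ cells alone, at 2.63, 2.38, 3.25 and 2.22. The sort difference of 1.02 for Col15a1 in knockout cells was counted as 2-fold, while against the floor it was at least 1.04-fold. Col4a3 was at 3.41, 3.23, 3.14 and 3.24. Col4a4 and Lama2 were below the floor throughout, at 2.25, 2.05, 2.25 and 2.11 and at 3.02, 2.96, 3.01 and 2.92.

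By genotype the other collagens did not share a direction, with 4 of 11 higher and 7 lower in knockout Flk1+ cells. By sort in control cells 10 of the 11 were higher in the Flk1+ fraction, against 5124 of 10622 genes. In knockout cells 7 of 10 were higher, against 4425 of 10688 genes. Of the 8 above the floor on all 4 arrays, 7 were higher in the control and 5 in the knockout. Col9a1 and Col9a3 encode chains of collagen IX, which sits on cartilage fibrils and also occurs in embryonic epithelia. Col9a1 was at 4.88 and 3.84 in Flk1+ and Flk1- cells of the control and at 3.33 and 3.26 in those of the knockout. Col9a3 ran the other way, at 4.25, 5.62, 5.37 and 5.83. In Flk1+ cells Col9a1 was 2.92-fold lower and Col9a3 2.17-fold higher in the knockout. For each gene the control Flk1+ array stood furthest from the other 3, as the highest for Col9a1 and the lowest for Col9a3. A second probe set of Col9a3 gave a genotype difference of 0.34 in place of 1.12, and that of Col9a1 was below the floor throughout, so the 2-fold size rests on 1 probe set in each.

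The membrane-spanning collagens Col23a1 and Col13a1 were higher in Flk1+ cells of each genotype. Col23a1 was at 5.75 and 4.75 in Flk1+ and Flk1- cells of the control and at 6.0 and 4.55 in those of the knockout. Its sort differences were 1.0 and 1.45 in control and knockout cells, and over its 3 probe sets they ranged from 0.61 to 1.42 and from 0.89 to 1.83. Col13a1 was at 4.70, 3.89, 4.29 and 3.41, with sort differences of 0.81 and 0.88. Col26a1 was at 4.47, 3.78, 4.66 and 3.21, and it was 2.74-fold higher in Flk1+ cells of the knockout, the knockout Flk1- value being near the floor. The other collagens above the floor, Col6a2, Col6a4, Col7a1, Col8a1, Col16a1 and Col25a1, differed by less than 2-fold in every comparison.

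Of the loose matrix, Hapln1 was the gene furthest apart by sort and Vcan the one furthest apart by genotype in Flk1- cells. Hapln1 encodes the link protein that fixes proteoglycans such as versican to hyaluronan. It was at 7.17 and 3.57 in Flk1+ and Flk1- cells of the control and at 6.87 and 2.68 in those of the knockout. The Flk1+ values were high in each genotype and the Flk1- values near or below the floor. Hapln1 was 12.1-fold higher in Flk1+ than in Flk1- cells of the control and at least 12.8-fold higher in the knockout. The second probe set gave log2 differences of 3.40 and 4.06, against 3.60 and 4.18. The 143 bases before the first RefSeq start of Hapln1 (GRCm38.p6, chr13:89540386-89540528, plus strand) are shown for this sort difference and hold neither motif.
Hapln1: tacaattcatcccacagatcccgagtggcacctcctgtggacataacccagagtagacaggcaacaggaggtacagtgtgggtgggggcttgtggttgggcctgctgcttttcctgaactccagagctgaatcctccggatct

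Vcan encodes versican, a large proteoglycan of the cardiac and mesenchymal matrix. It was at 8.44 and 8.04 in Flk1+ and Flk1- cells of the control and at 7.47 and 6.15 in those of the knockout. Both knockout values lay below both control values. Knockout minus control was -0.97 in Flk1+ cells, just under 2-fold, and -1.89 in Flk1- cells, or 3.70-fold lower. Over the 3 probe sets of Vcan above the floor the ranges were -0.97 to -0.49 and -2.14 to -1.89, and its other probe sets were below the floor on all arrays. By sort Vcan was at 0.39 in control and 1.31 in knockout cells. Its other probe sets above the floor were at 0.07 and -0.21 in the control, where the direction turned, and at 1.17 and 1.44 in the knockout. Averaging all its probe sets, those below the floor included, gave 0.77 in the knockout.

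Fn1, which encodes fibronectin, the main substrate of migrating mesoderm, was at 9.26 and 8.45 in Flk1+ and Flk1- cells of the control and at 8.70 and 7.86 in those of the knockout. It was lower in the knockout by about the same amount in each fraction, -0.57 and -0.59, and higher in Flk1+ cells of each genotype, by 0.81 and 0.84, all under 2-fold. Sparc, a collagen-binding protein of the basement membrane and bone, was at 8.98, 8.66, 8.60 and 8.40, and differed by 0.37 or less in size in every comparison. The window of Sparc held a Snail E-box, and the 30 bases around it (GRCm38.p6, chr11:55420064-55420093, minus strand) are shown with the box in capitals. The box begins at position -1.
Sparc: gaacagatgagaCAGGTGgggccagggtgt

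**Figure D2:**
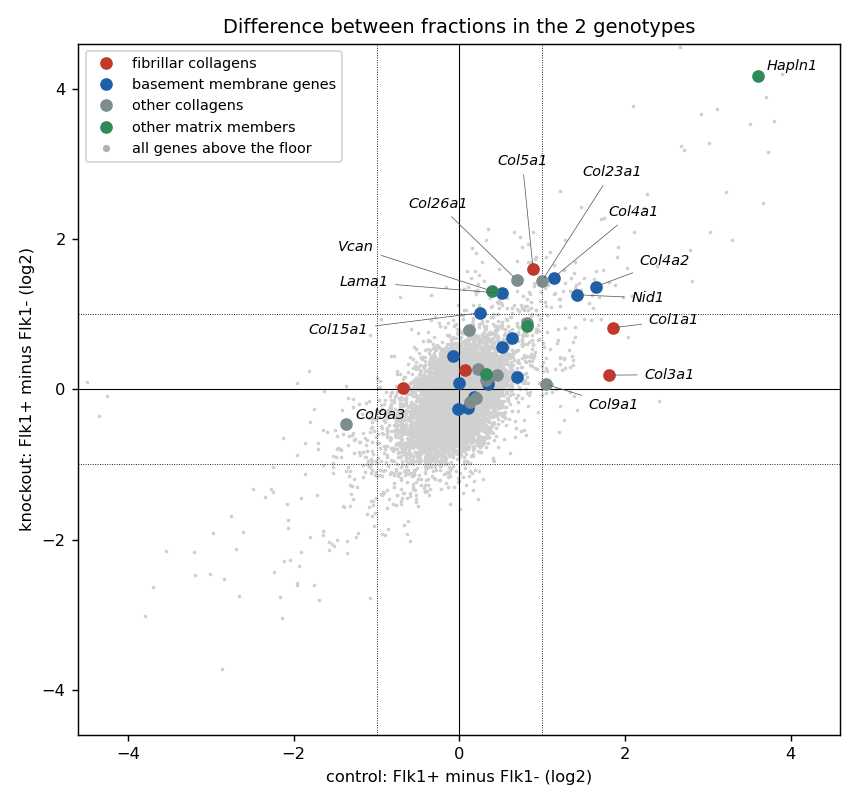
Difference between Flk1+ and Flk1- cells (log2) in control (horizontal axis) and knockout (vertical axis), with matrix genes coloured by class, all 10955 genes above the floor in grey (2 lie beyond the axes) and dotted lines at 2-fold. Hapln1 is far to the upper right at 3.60 and 4.18, Col4a1, Col4a2 and Nid1 are past 2-fold on each axis, and Col1a1 and Col3a1 are past it on the control axis alone.

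The sort differences in control and knockout cells use different arrays. Col1a1 and Col3a1 had control sort differences of 1.85 and 1.80 and knockout sort differences of 0.82 and 0.19, with Col3a1 below the floor in both knockout fractions. Col5a1 and Vcan had 0.89 and 0.39 in the control and 1.60 and 1.31 in the knockout. Each genotype comparison shares an array with each sort comparison, so that a high control Flk1+ value enters the genotype difference and the control sort difference alike.

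**Figure D3:**
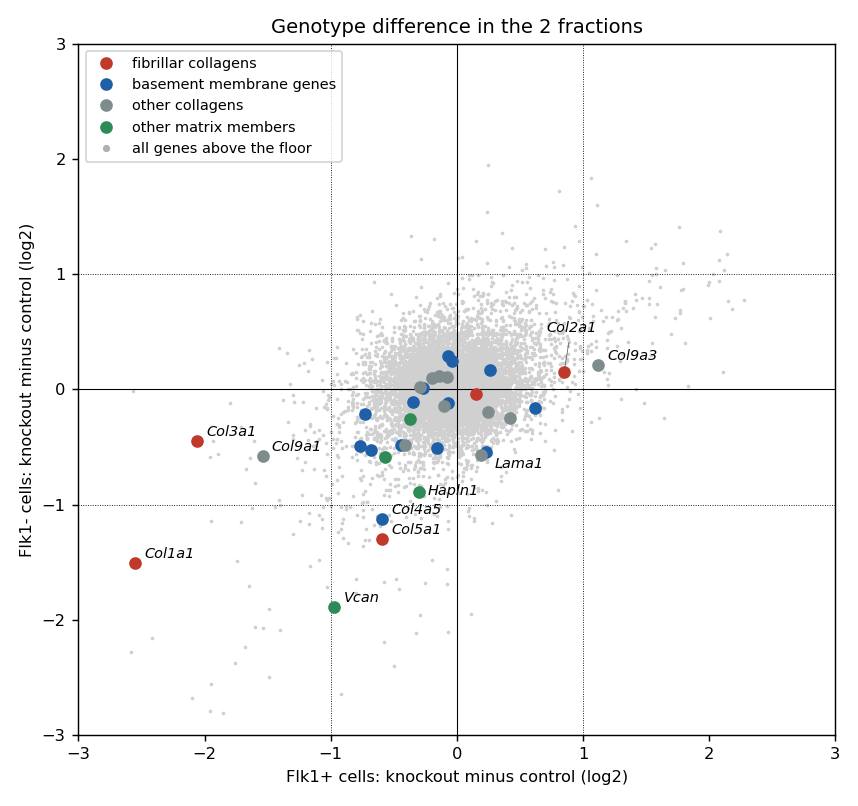
Knockout minus control difference (log2) in Flk1+ (horizontal axis) and Flk1- cells (vertical axis), with matrix genes coloured by class, genes above the floor in grey (8 lie beyond the axes) and dotted lines at 2-fold. Col1a1 is past 2-fold on each axis at -2.55 and -1.51, Col3a1 and Col9a1 on the Flk1+ axis alone, and Vcan, Col5a1 and Col4a5 on the Flk1- axis alone.

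Of the 34 matrix genes above the floor, Col1a1 was the 1 gene 2-fold or more lower in each fraction of the knockout. Its knockout Flk1- value of 3.17 was just under the floor. The share of all genes lower in each fraction was not taken, so this count has no background. The gap between the genotype differences of the fractions, Flk1+ less Flk1-, was 1 or more in size for 2 of the 34 (5.88%, against 1.58% of all genes). These were Col3a1 at -1.61 and Col1a1 at -1.04, on the negative side, where 0.831% of all genes were counted. Both were above the floor on some arrays only. Setting values below the floor to the floor gave -1.80 and -1.06. Of the 24 genes above the floor on all 4 arrays 0 were counted, near the share of the 9555 genes on the same filter (1.29%). On the positive side 0 matrix genes were counted, against 0.749%, with Vcan at 0.92 and Col9a3 at 0.91 the nearest, and Col9a1 at -0.97 fell just short of the count.

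By genotype, the 10 basement membrane genes above the floor on all arrays spanned -0.77 to 0.26 in Flk1+ cells and -0.54 to 0.29 in Flk1- cells, and the 3 such fibrillar collagens -0.59 to 0.85 and -1.30 to 0.15. With the genes above the floor on some arrays added, the 14 basement membrane genes tested in Flk1+ cells had genotype differences from -0.77 to 0.62 with a median of -0.22, and the 12 tested in Flk1- cells from -1.13 to 0.29 with a median of -0.30. The 5 fibrillar collagens above the floor spanned -2.55 to 0.85 in Flk1+ and -1.51 to 0.15 in Flk1- cells. Their medians of -0.59 and -0.45 rest on 5 genes, of which Col1a1 and Col3a1 were above the floor on some arrays only, and the 3 above it on all arrays had medians of 0.15 and -0.04. By sort, basement membrane genes had medians of 0.51 in control and 0.62 in knockout cells. The medians of all genes tested were -0.05, 0.04, -0.01 and -0.08 in the 4 comparisons.

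**Figure D4:**
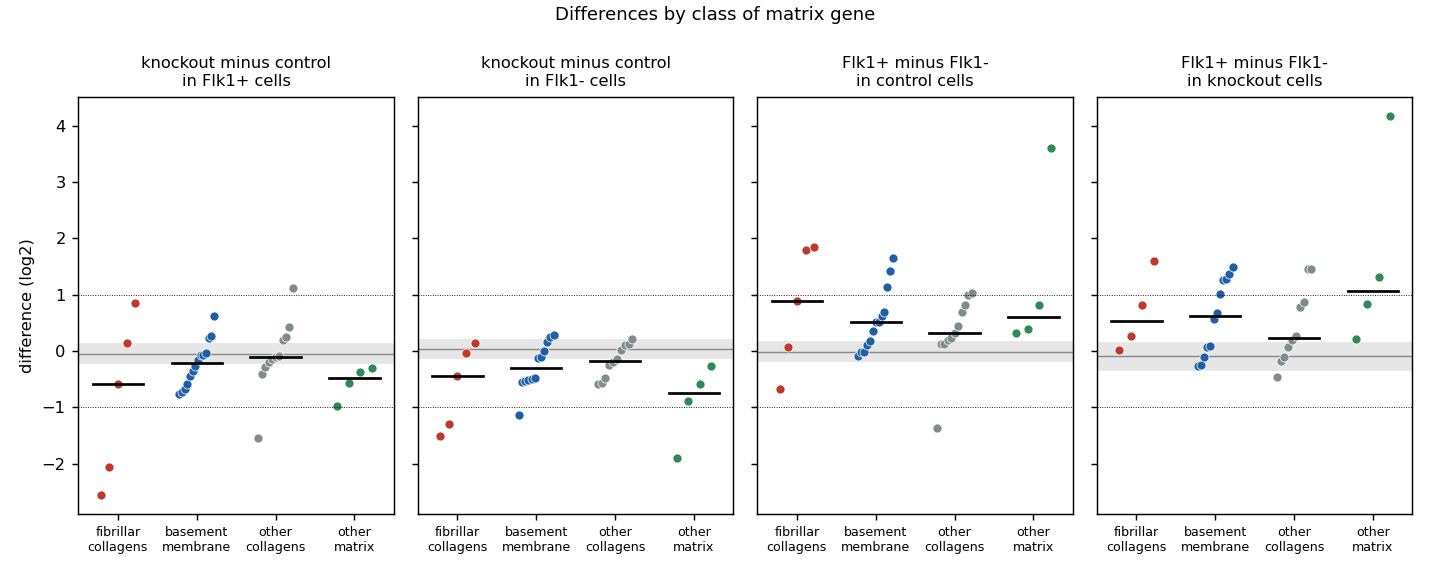
Log2 differences (vertical axis) of matrix genes above the floor in the 4 comparisons, by class, with 1 point per gene and the class median as a black bar; the grey band spans the middle quartiles of all genes tested with their median as a grey line, and dotted lines mark 2-fold. The 5 fibrillar collagens in Flk1+ cells spread from -2.55 to 0.85 by genotype, and basement membrane genes from -0.77 to 0.62.

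Of 28 genes on the array that modify and secrete collagen, 22 could be compared in Flk1+ and 18 in Flk1- cells, and 0 were 2-fold apart by genotype in either, a count near the shares of all genes (1.85% and 1.34%). By sort 1 of 22 was higher in control cells (1.20% of all genes) and 2 of 20 in knockout cells (1.62%), with 0 lower. Serpinh1, the collagen chaperone of the endoplasmic reticulum, was at 8.80 and 8.33 in Flk1+ and Flk1- cells of the control and at 8.72 and 7.51 in those of the knockout, which was 1.20 higher by sort in the knockout. Tll1, a protease of the family that trims procollagen, was at 4.62, 3.01, 4.03 and 2.94. It was higher in Flk1+ cells of each genotype, by at least 2.70-fold in control and at least 1.79-fold in knockout cells.

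Among 58 further matrix genes on the array, 1 of 28 was 2-fold lower in knockout Flk1+ cells and 3 of 26 in knockout Flk1- cells, against 0.976% and 0.949% of all genes. In either fraction 0 were higher, against 0.873% and 0.389%. Postn, or periostin, a matrix protein of mesenchyme and heart valves, was at 4.87 and 3.52 in Flk1+ and Flk1- cells of the control and at 3.16 and 3.19 in those of the knockout; the control Flk1+ array alone was well above the floor. Fbn2, a microfibril gene of embryonic tissue, was at 7.64, 6.98, 7.92 and 5.82, and Tgfbi at 4.84, 3.95, 4.94 and 2.85. These 2 were lower in the knockout in Flk1- cells, by -1.16 and -1.10, and not in Flk1+ cells. Tgfbi was below the floor in knockout Flk1- cells, and against the floor its difference was at least 1.69-fold. Has2, the synthase of the hyaluronan that versican binds, was at 7.25, 7.03, 6.58 and 5.99, and was -0.67 and -1.04 from control in Flk1+ and Flk1- cells.

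Of 22 matrix receptor genes on the array, 14 could be compared in Flk1+ and 13 in Flk1- cells, and 1 was 2-fold apart in each (1.85% and 1.34% of all genes). This was Itgb3, the integrin beta chain of a fibronectin and vitronectin receptor. It was at 5.10 and 5.89 in Flk1+ and Flk1- cells of the control and at 3.33 and 3.50 in those of the knockout, so both knockout values were close to the floor. By sort in knockout cells Itga9 and Itga8, integrin alpha chains that bind matrix glycoproteins, were 1.76 and 1.47 higher in Flk1+ cells, and in control cells 0.92 and 0.76 higher.

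Markers of other cell types also differed between the arrays. Of 10 fibroblast markers, 5, 4, 3 and 3 were above the floor on the 4 arrays, with mean log2 values of 3.47, 3.12, 3.13 and 2.79. Dcn, Lum, Thy1, Fap and S100a4 were below the floor on all 4 arrays. Pdgfra and Pdgfrb were above it on all 4, and Postn, Prrx1 and Twist2 on some. In knockout Flk1+ cells 2 of 5 were 2-fold lower (0.976% of all genes), Postn at -1.71 and Twist2 at -1.40, both below the floor there. In Flk1- cells 0 of 4 were 2-fold apart (1.34%). By sort 1 of 5 was higher in control cells (1.20%), Postn, and 2 of 4 in knockout cells (1.62%), Pdgfrb and Prrx1. Of 10 endothelial markers, 10, 2, 9 and 3 were above the floor, with means of 4.90, 2.84, 4.63 and 2.98. By sort 7 of 10 were 2-fold higher in control Flk1+ cells (1.20% of all genes) and 7 of 9 in knockout Flk1+ cells (1.62%). Among them, Emcn and Esam were below the floor in both Flk1- fractions. Against the floor, Emcn was at least 1.33-fold higher in control and 1.72-fold in knockout cells, and Esam at least 1.9-fold and 1.96-fold. Markers below the floor in Flk1- cells were compared only because of the Flk1+ array. Pecam1 did not follow the sort, at 0.15 in control and -0.65 in knockout cells. Tie1 and Cldn5 were under 2-fold in control cells, at 0.78 and 0.52. The 8 cardiac markers had means of 5.40, 5.64, 4.04 and 3.54, and the 9 pluripotency markers had 3.59, 5.97, 4.74 and 6.86.

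Parietal endoderm is the embryonic tissue best known for collagen IV and laminin secretion. Of its 10 markers 8, 6, 8 and 7 were above the floor in the same order of arrays, with means of 4.63, 4.52, 4.55 and 4.47, and Thbd and Plat were below the floor throughout. By genotype 0 of 8 in Flk1+ and 0 of 7 in Flk1- cells were 2-fold apart, near the shares of all genes (1.85% and 1.34%). By sort the markers went opposite ways in control cells, Sox7 at 1.63 and Foxa2 at -1.21. That was 1 of 8 higher (1.20% of all genes) and 1 lower (1.51%). In knockout cells 1 of 8 was higher (1.62%), Sox7 at 1.47, and 0 were lower (2.17%). Sox7 was below the floor in both Flk1- fractions. The 10 visceral endoderm markers had means of 4.07, 4.28, 4.01 and 3.97, but members differed in opposite directions. By genotype 2 of 8 were 2-fold apart in Flk1+ cells (1.85% of all genes), Ttr at -2.10 and Cer1 at 2.18. In Flk1- cells 2 of 7 were (1.34%), Ttr at -2.68 and Apob at -1.10. The 7 primitive erythroid markers had means of 3.74, 6.38, 2.49 and 2.47. The part of any of these cell types in the matrix differences was not tested.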

How the data were processed

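RNA of 4 sorted populations was measured on 1 Affymetrix array each, from 50 ng of total RNA amplified to cDNA. The authors deposited log2 values for 45141 probe sets, used here as given; the submitters' processing notes name RMA and limma without versions. RMA compresses low signals, so small values understate folds. After leaving out 104 control probe sets, the 28898 probe sets with 1 annotated gene gave 17097 genes. All 56 matrix genes matched the RefSeq table (GRCm38.p6). A fold is a lower bound, taken from the floor, where the dimmer array lies under it. With 1 array per group there was no test, and the number of arrays limits the precision. Genes given in full were the major chains and any member 2-fold apart, and from other lists up to 4 genes each way. The members and lists were chosen with earlier results of these data known. Alternatives were other size rules, floors, probe set choices and scalings (limma 3.58.1, R 4.3.3). Python 3.11.15 scripts were tested on simulated data.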

Additional observations from a re-analysis of the deposited data

Results flagged for a closer look

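Lama1 and Col23a1 had knockout minus control differences of opposite sign in the 2 fractions, each larger than the SD among a gene's probe sets (0.228 in Flk1+ and 0.189 in Flk1- cells), while above the floor on all 4 arrays. Lama1 was at 0.23 in Flk1+ and -0.54 in Flk1- cells, on a single probe set. Col23a1 was at 0.25 and -0.20, and its other probe sets were at 0.02 and -0.26 and at 0.08 and -0.33. The difference between the fractions was not tested for either gene.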

How the results depend on the processing

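No paired analysis was possible because each group has 1 array. For the same reason no array could be left out of a comparison. An alternative median counted as moved when it shifted by more than the SD between probe sets of a gene in that comparison (0.189 to 0.278). With a 1.5-fold rule, 3 matrix genes were higher and 9 lower in knockout Flk1+ cells (1 and 3 at 2-fold), where all genes gave 347 and 471 of 10655. By sort in control cells 14 were higher and 2 lower (8 and 1), where all genes gave 370 and 506 of 10622. With a 3-fold rule, 0 were higher in knockout Flk1+ cells, 1 was lower in knockout Flk1- cells (Vcan, against 4), 4 were higher and 0 lower by sort in control cells, and 2 were higher by sort in knockout cells (against 10). All genes at 3-fold gave 26 higher in knockout Flk1+ cells, 38 lower in knockout Flk1- cells, 47 higher and 55 lower by sort in control cells and 57 higher by sort in knockout cells. Averaging the probe sets of a gene left 0 higher in knockout Flk1+ cells and 0 lower by sort in control cells, since Col9a3 fell under 2-fold, at 0.73 and -0.96. It also ended the calls of Col9a1 in Flk1+ cells (-0.95) and by sort in control cells (0.62), of Col4a5 in Flk1- cells (-0.75) and of Vcan by sort in knockout cells (0.77).

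The fibrillar median in Flk1+ cells was -0.59, but -0.15 after centring on the median, -0.14 with averaged probe sets and -0.22 without probe sets ending in _s_at or _x_at, where Col5a3 also passed the floor, and -0.04 with no floor. In Flk1- cells it was -0.45, but -1.30 with the floor at the median of 3.72, -0.15 with no floor and -0.10 with values set to the floor. By sort in control cells it was 0.89, but 1.34, 0.07 and 0.62 with the floor at the median, no floor and averaged probe sets. The basement membrane median by sort was 0.51 in control and 0.62 in knockout cells, but 0.22 and 0.20 with no floor, and 0.33 in the knockout with values set to the floor. Of 992 single-gene values under the alternatives, 959 moved by no more than that spread, 33 moved by more and 0 of the 2-fold values changed sign. Raising or dropping the floor leaves a gene's difference as it is, so the 124 values under each could not move. Leaving out probe sets ending in _s_at or _x_at alters only genes whose used probe set has that ending. Averaging alters only genes with more than 1 probe set, and centring shifts all genes of a comparison by 1 constant. Many of the 959 were therefore fixed in advance, and their number is not a measure of stability. Of the values that moved by more, 22 came from averaging probe sets and 11 from setting values to the floor. Centring moved the median of all genes by sort in knockout cells from -0.08 to 0.09, and the all-gene counts for the gap between the fractions from 82 above and 91 below to 119 and 52. Under centring, cyclic loess and repeated quantile normalization, the counts of matrix genes changed by at most 1, through Col13a1 and Col15a1. Col4a5 in Flk1- cells and Col15a1 by sort in knockout cells were under 2-fold with values set to the floor, at -0.52 and 0.06.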

Other observations

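Several matrix genes lie next to each other in the genome with no other protein-coding gene between them, in 8 pairs, and their values can be set side by side. Hapln1 and Vcan, the link protein and the proteoglycan it anchors, are neighbours on chromosome 13. By sort they were at 3.60 and 0.39 in control cells and 4.18 and 1.31 in knockout cells. By genotype in Flk1- cells they were at -0.89 and -1.89. Hapln1 was below the floor in knockout Flk1- cells, and its genotype difference was -0.38 with values set to the floor. Col3a1 and Col5a2, fibrillar collagens on chromosome 1, were at -2.06 and -0.05 by genotype in Flk1+ cells, with Col5a2 below the floor on all 4 arrays. Col3a1 was below it in knockout Flk1+ cells, and its difference was -1.9 with values set to the floor. Col9a1 and its neighbour Col19a1 on the same chromosome were at -1.54 and -0.21, with Col19a1 also below the floor throughout. Col4a1 and Col4a2 on chromosome 8 were at -0.16 and -0.77 by genotype in Flk1+ cells and at -0.51 and -0.49 in Flk1- cells. Col4a6 and Col4a5 on the X chromosome were at -0.73 and -0.59 in Flk1+ cells, with both below the floor in the knockout.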
